A study of Mus musculus with 8 samples.

Results

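Among targets and regulators of the transcription factor p53, 31 genes could be measured. Of these, 13 were higher and 6 lower in lung mesenchymal cells of bleomycin-treated mice than in those of control mice. These were 41.9% and 19.4% of the measured genes, against 9.12% higher and 8.24% lower among all genes tested. The genes are a list of 34, made of p53 itself (Trp53), its regulators and its targets, and a gene was taken in where a probe set of the arrays was annotated to it and to no other gene. Each of the 31 had 1 such probe set. Trp53 and the ferredoxin reductase gene Fdxr had none and Ddb2, a DNA damage sensor, had only a probe set that also carries another gene's name, so these 3 are not analysed here. The whole table held 22180 genes that could be tested in the same way. The rule for taking in a gene uses no measured difference, but the list was drawn up with earlier results of these data known.

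The bleomycin group was made of cells from C57BL/6J mice, 11 weeks old and kept under specific pathogen-free conditions, that had received bleomycin through the trachea, and the control group of cells from mice of the same strain and age that had received phosphate-buffered saline. Bleomycin is an antibiotic that breaks DNA strands and is used to provoke lung fibrosis in mice. On day 10 cells lacking CD45, CD31 and EpCAM, the surface antigens of leukocytes, endothelium and epithelium, were isolated by flow cytometry, and RNA was hybridised to 4 bleomycin and 4 control arrays. The labels do not say whether replicates came from separate animals, so the p-values describe only how these samples vary, and that variation may be technical.

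p53 is a transcription factor that is stabilised when DNA breaks. It then switches on genes that halt the cell cycle, repair DNA, adjust metabolism or kill the cell, and it also switches on Mdm2, whose product marks p53 for destruction and so closes a feedback loop. Much of this control acts on the p53 protein, which arrays do not measure. Many of the targets also answer to other stress signals, to growth signals or to the cell cycle itself.

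p53 binds DNA as a tetramer at pairs of a half-site of 10 bases. The RefSeq promoter table of GRCm38.p6 gives 250 bases before and 50 after each gene's start. It held 39 windows of 27 members and no entry for the other 7. Those without a window were Xpc, Rrm2b and Perp, which were lower in bleomycin samples, Zmat3, which was higher, and Pmaip1, Trp53inp1 and Ddb2. The windows were searched for the p53 half-site consensus, which reads the same on both strands, with its CNNG core required to match. A pair of half-sites with at most 1 mismatch over both and a gap of at most 13 bases was found in 3 member windows, against 206 of all 32851 windows (0.627%). This limit on mismatches was set with the matches in view. An exact single half-site was found in 11 member windows (28.2%), against 8.36% of all windows, and 2 of the 11 are overlapping windows of Aen that hold the same site. The members are p53 itself, its regulators and its known targets, so such matches are a description. A window without a match says only that these letters are not in it. The windows with pairs are shown because they lie in genes that were higher in bleomycin samples. They are followed by single half-sites of Mdm2 and Aen, which were also higher, and of Sesn1, which was lower. Exact half-sites of Ei24 and Polk, called in neither direction, and of Trp53, not measured, are not printed. Since the printed genes were chosen by their differences, they cannot show a link between sites and differences. Capitals mark the half-sites, and each sequence runs 5′ to 3′ on the strand of its gene.
Ccng1, pair without a gap, chr11:40755422-40755521, minus strand: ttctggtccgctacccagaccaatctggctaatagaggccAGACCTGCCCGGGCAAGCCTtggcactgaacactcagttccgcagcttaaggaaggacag
Cdkn1a, exact pair with a gap of 12 bases and a further half-site, chr17:29090866-29090978, plus strand: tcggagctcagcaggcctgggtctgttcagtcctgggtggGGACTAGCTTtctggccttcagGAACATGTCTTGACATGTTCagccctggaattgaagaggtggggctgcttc
Gtse1, pair without a gap, chr15:85859945-85859964, plus strand: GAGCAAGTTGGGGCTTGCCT
Mdm2, single half-site, chr10:117710895-117710984, minus strand: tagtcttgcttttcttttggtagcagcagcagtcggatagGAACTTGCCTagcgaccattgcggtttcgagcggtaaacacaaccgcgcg
Aen, single half-site, chr7:78895897-78895986, plus strand: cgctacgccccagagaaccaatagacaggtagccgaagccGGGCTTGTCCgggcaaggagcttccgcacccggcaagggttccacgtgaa
Sesn1, single half-site, chr10:41887226-41887315, plus strand: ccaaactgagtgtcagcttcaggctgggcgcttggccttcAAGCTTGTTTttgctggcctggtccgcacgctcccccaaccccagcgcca
The Ccng1 pair ends 176 bases before the start. In Cdkn1a the last 2 half-sites also form a pair of their own, without a gap and with 1 mismatch, which ends 32 bases before the start of the more upstream of its 2 RefSeq promoter windows, and the other window holds no such pair. The Gtse1 pair begins 1 base before the start of the second of its windows and runs into the transcript, so only the site is printed. A further pair with 1 mismatch overlaps it deeper in the transcript and is not printed.

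All values are log2 intensities as deposited, and differences are bleomycin minus control with a standard error from limma, fitted over all genes with Benjamini-Hochberg adjustment over the same genes. A gene is said to have risen or fallen where the adjusted p was under 0.05. Over all genes 9.12% rose and 8.24% fell, so that 17.4% passed in either direction. Of the 31 members 13 rose (41.9%) and 6 fell (19.4%), with a median log2 difference of 0.27 against 0.03 over all genes. The groups did not overlap in 22 of the 31 members (71.0%), against 23.5% of all genes. Of the members that passed, 3 rose by over 2-fold (Gtse1, Eda2r and Ak1) and none fell by as much. The roles differed in their counts. In feedback 2 of 3 genes rose and none fell, in cell cycle arrest and mitosis 3 of 5 rose and 1 fell, in apoptosis and survival 5 of 12 rose and 1 fell, in metabolism and redox 3 of 7 rose and 1 fell, and in DNA repair none of 4 rose and 3 fell. At an unadjusted p under 0.05, Mdm4 in the feedback group was also lower and Polk in the repair group also higher in the same limma fit. In apoptosis and survival, Ei24 and Pidd1 were also higher and Fas and Trp53inp1 also lower at that threshold. That made 7 of 12 higher and 3 lower in this role, beside 3655 and 3117 of all 22180 genes. No test of the difference between roles was made.

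**Figure D1:**
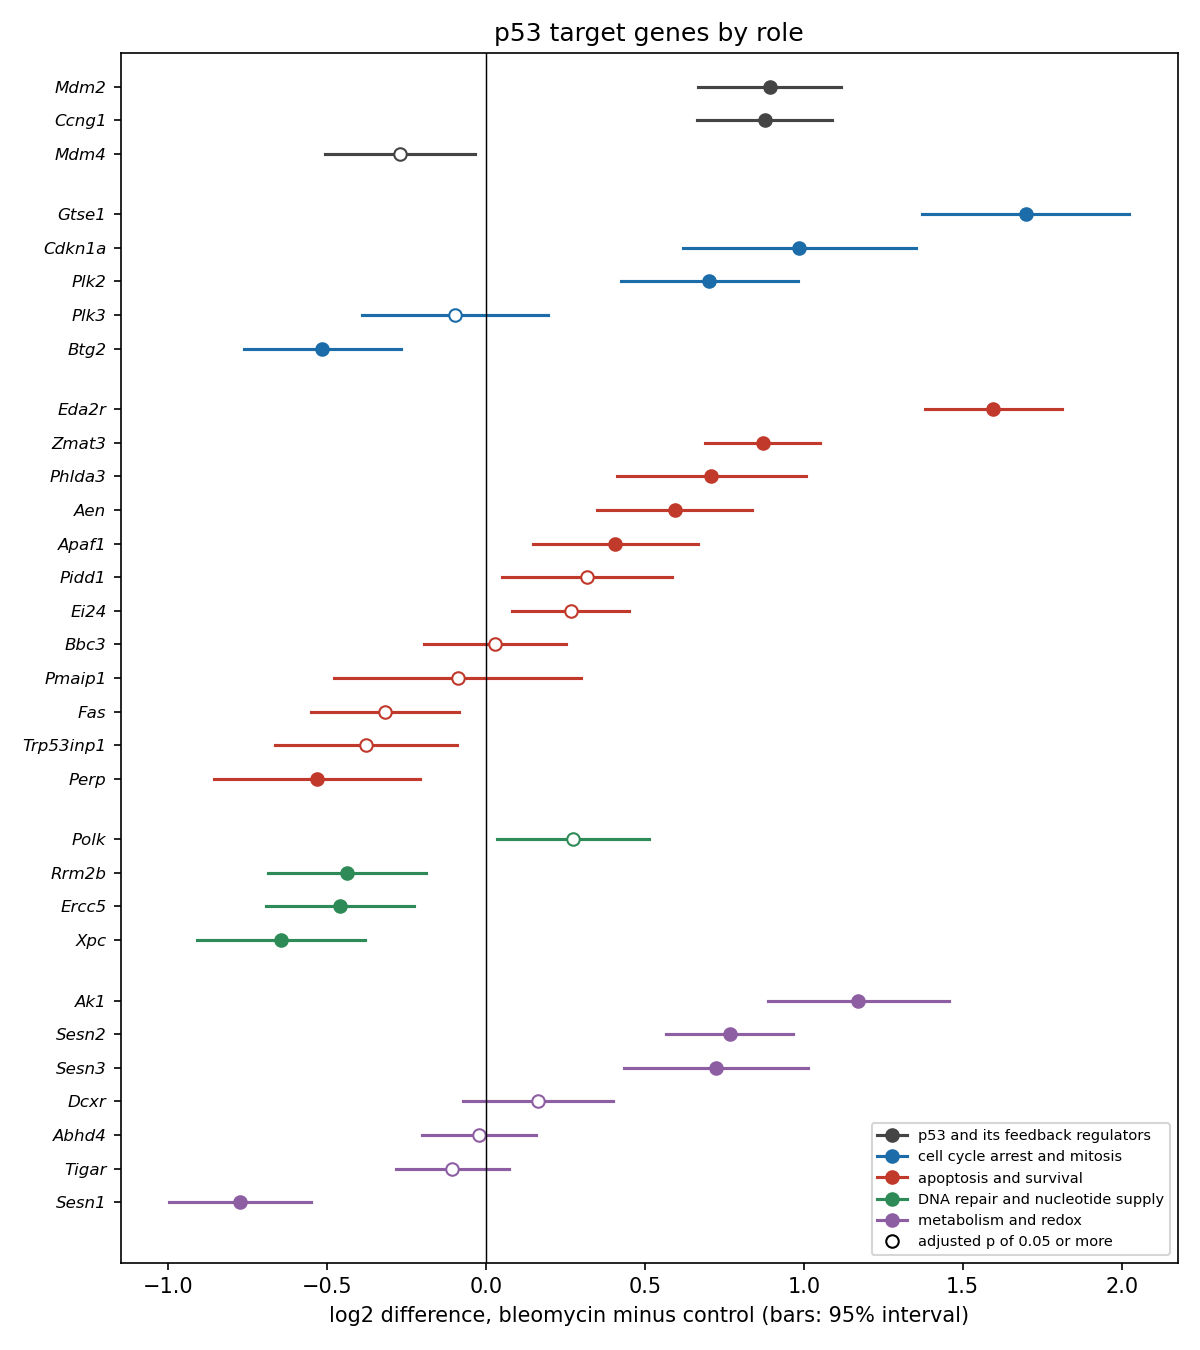
Log2 difference between bleomycin and control arrays (x axis) for the 31 measured p53 target genes, grouped by role, with 4 arrays per group. Points are the differences, bars their 95% intervals from limma, and filled points have an adjusted p under 0.05. Gtse1 at 1.70 and Eda2r at 1.60 lie farthest to the right, Sesn1 at -0.77 farthest to the left, and 3 of 4 repair genes lie left of 0.

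Markers of cells that the gate should remove were present at unequal levels in both groups. The counts of markers stand beside 9.12% of all genes that rose and 8.24% that fell. Of 15 markers of alveolar and airway epithelium 11 fell and none rose, and their summed linear intensity was 2279 to 5303 on bleomycin arrays and 11933 to 21640 on control arrays. Sftpc, the defining gene of alveolar type 2 cells, read 9.20 to 10.58 on bleomycin arrays and 11.66 to 12.51 on control arrays. Of 10 endothelial markers 8 fell and none rose, with summed intensities of 1832 to 2839 on bleomycin arrays and 3703 to 8339 on control arrays. Of 11 leukocyte markers 6 rose and none fell, with summed intensities of 1936 to 2746 on bleomycin arrays and 1912.5 to 3116 on control arrays. Of 9 mesenchymal markers 6 rose and 2 fell, with summed intensities of 30055 to 33772 on bleomycin arrays and 24169 to 26751 on control arrays. The 6 rises ran from 0.72 ± 0.11 for the collagen gene Col1a2 to 1.92 ± 0.16 for the actin gene Acta2. Pdgfra, a receptor that marks lung fibroblasts, was 1 of the 2 that fell, by 0.43 ± 0.08 (adjusted p = 0.00558). It read 12.04 to 12.25 on bleomycin and 12.52 to 12.63 on control arrays. Control replicates 1 and 2 carried more epithelial and endothelial signal than control replicates 3 and 4, and the second principal component (11.1% of the variance) set replicates 1 and 2 apart from 3 and 4 in both groups. Results are therefore also given within each pair of replicates and without those 2 controls, for some members by value and for all as counts. In bulk samples of this kind, fewer cells of a type and less RNA per cell cannot be told apart. The part of these cells in the results below was not tested.

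The feedback genes Mdm2 and Ccng1 rose together. Mdm2, the ubiquitin ligase that targets p53, read 9.23, 9.24, 9.12 and 9.05 on bleomycin replicates 1 to 4 and 8.36, 8.36, 8.03 and 8.33 on control replicates 1 to 4. Every bleomycin array lay above every control array, and the rise was 0.89 ± 0.10, or 1.86-fold (adjusted p = 0.000302). Ccng1, which encodes cyclin G1, a partner in the control of Mdm2, read 11.13, 11.00, 11.09 and 10.94 on bleomycin arrays and 10.35, 10.15, 10.01 and 10.14 on control arrays. It rose by 0.88 ± 0.10, or 1.84-fold (adjusted p = 0.000247), and its groups did not overlap either. Mdm4, a relative of Mdm2 that holds p53 inactive, read 7.90 to 8.35 on bleomycin and 8.34 to 8.48 on control arrays. These ranges just meet, and its difference of -0.27 ± 0.11 did not pass (adjusted p = 0.114).

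Cdkn1a encodes p21, the inhibitor of cyclin-dependent kinases through which p53 halts the cell cycle. It read 11.19, 11.09, 10.99 and 11.15 on bleomycin arrays and 10.45, 10.44, 9.77 and 9.80 on control arrays. All bleomycin arrays were above all controls, and the rise was 0.99 ± 0.17, or 1.98-fold (adjusted p = 0.00263). The 4 bleomycin values were close together (SD 0.08) while the controls fell into an upper and a lower pair (SD 0.38). The upper controls are replicates 1 and 2, the arrays with the higher epithelial and endothelial signal, and they exceeded replicates 3 and 4 by 0.66. The rise was 0.69 within replicates 1 and 2, 1.28 within replicates 3 and 4 and 1.31 without control replicates 1 and 2, and it passed in each of these fits (largest adjusted p = 0.0307).

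Gtse1, whose product binds microtubules in G2 and mitosis and restrains p53, also rose. It read 6.78, 6.38, 6.32 and 6.17 on bleomycin arrays and 4.86, 4.56, 4.51 and 4.93 on control arrays, a rise of 1.70 ± 0.15 or 3.24-fold (adjusted p = 6.3e-05). On the control arrays this probe set was about as dim as the typical row that carries no gene name (array medians of 4.44 to 4.52), so its fold, and its place beside Eda2r at the top of the list, are not settled. Gtse1 rose beside the G2 and mitosis genes, of which all 13 measured rose, against 9.12% of all genes. Birc5 and Cdc25c lay below the median of rows without a gene name on all 4 control arrays and Top2a on 2, so the sizes of their rises are uncertain, and the median of the other 10 was 1.60. Of those 10, Mki67, the proliferation marker, rose by 2.94 ± 0.24, the cyclin gene Ccna2 by 2.41 ± 0.24 and the mitotic kinase gene Plk1 by 2.07 ± 0.22. On bleomycin replicates 1 to 4 the mean of all 13 mitosis genes stood 2.17, 1.71, 1.77 and 1.33 above its control mean, so Gtse1 and the mitosis genes were both highest on replicate 1 and lowest on replicate 4. Cdkn1a and the mitosis genes were thus higher in the same samples, which does not say that they were higher in the same cells.

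The other growth-restraining targets went different ways. Plk2, a stress-induced polo-like kinase, read 9.52, 9.75, 9.64 and 9.34 on bleomycin arrays and 8.76, 8.64, 8.95 and 9.09 on control arrays. Its groups were apart and it rose by 0.70 ± 0.13, or 1.63-fold (adjusted p = 0.00378), though within replicates 3 and 4 alone it differed by 0.47 and did not pass (adjusted p = 0.158). Its relative Plk3 read 7.37 to 7.62 on bleomycin and 7.34 to 7.87 on control arrays, and its difference of -0.10 did not pass (95% interval -0.39 to 0.20). Btg2, an antiproliferative gene that also belongs to the early response genes, read 10.75, 10.85, 10.99 and 11.15 on bleomycin arrays and 11.35, 11.31, 11.55 and 11.59 on control arrays. Every bleomycin array was below every control, and Btg2 fell by 0.51 ± 0.11, or 1.43-fold (adjusted p = 0.00989).

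**Figure D2:**
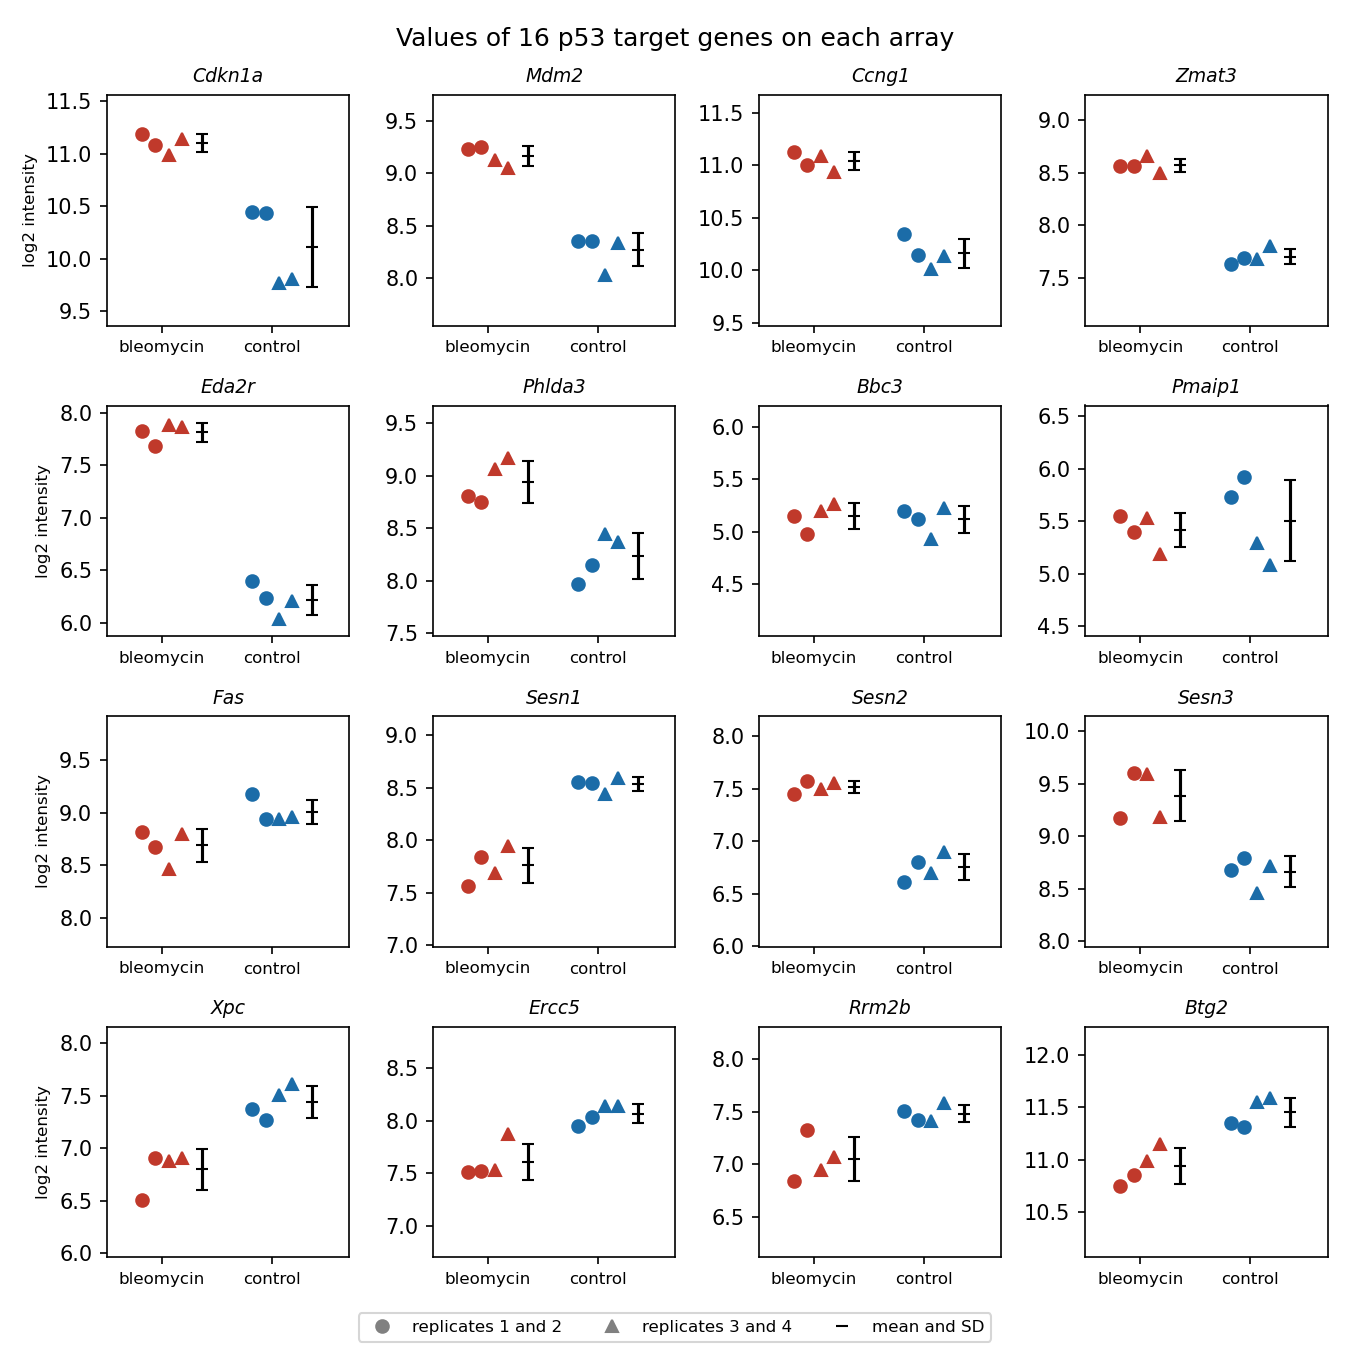
Log2 intensity (y axis, the same span of 2.2 log2 units in each panel) of 16 p53 target genes on the 4 bleomycin and 4 control arrays. Circles are replicates 1 and 2, triangles replicates 3 and 4, and black bars the mean and SD of a group. Cdkn1a and Pmaip1 show upper control values on replicates 1 and 2, Bbc3 overlaps fully, and Sesn1 moves opposite to Sesn2 and Sesn3.

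Among the apoptosis and survival genes the rises that passed were not in the BH3-only genes, whose probe sets were dim. Eda2r, a TNF family receptor for the ligand EDA-A2, read 7.82, 7.68, 7.88 and 7.87 on bleomycin arrays and 6.39, 6.23, 6.04 and 6.20 on control arrays. It had the smallest adjusted p of the list, with a rise of 1.60 ± 0.10 or 3.02-fold (adjusted p = 1e-05). Zmat3, an RNA-binding zinc finger protein, read 8.57, 8.56, 8.66 and 8.50 on bleomycin arrays and 7.63, 7.69, 7.68 and 7.80 on control arrays. Its values were tight in both groups (SD 0.06 and 0.07) and it rose by 0.87 ± 0.08, or 1.83-fold (adjusted p = 0.000108). Phlda3, which competes with the survival kinase Akt at the membrane, read 8.81, 8.75, 9.06 and 9.17 on bleomycin arrays and 7.98, 8.15, 8.45 and 8.37 on control arrays. The lowest bleomycin value was above the highest control, and the rise was 0.71 ± 0.13 (adjusted p = 0.00501). Without control replicates 1 and 2 it was 0.53 and just missed the threshold (adjusted p = 0.0551).

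Aen, a nuclease that promotes apoptosis, read 6.57, 6.48, 6.72 and 6.89 on bleomycin arrays and 6.04, 5.95, 6.04 and 6.24 on control arrays. It rose by 0.59 ± 0.11 without overlap (adjusted p = 0.0045), and differed by 0.52 without control replicates 1 and 2, where it did not pass (adjusted p = 0.0556). Apaf1, the scaffold of the apoptosome, read 7.02 to 7.46 on bleomycin and 6.74 to 7.02 on control arrays. Bleomycin replicate 2 and control replicate 2 nearly met, and the rise of 0.41 ± 0.12 rested on single arrays (adjusted p = 0.036). Without bleomycin replicate 1 or 3, or control replicate 1, 3 or 4, Apaf1 did not pass (adjusted p of 0.0616 to 0.0958).

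The BH3-only genes Bbc3 and Pmaip1 encode Puma and Noxa, which start the mitochondrial path of apoptosis. Bbc3 read 5.15, 4.98, 5.19 and 5.27 on bleomycin arrays and 5.20, 5.12, 4.93 and 5.22 on control arrays. These values overlapped throughout, with a difference of 0.03 and a 95% interval of -0.19 to 0.25. Pmaip1 read 5.55, 5.40, 5.53 and 5.19 on bleomycin arrays and 5.73, 5.92, 5.29 and 5.09 on control arrays. Its controls split as those of Cdkn1a did, by 0.64 between replicates 1 and 2 and replicates 3 and 4. Its difference was -0.09 over all arrays (95% interval -0.48 to 0.30), -0.35 within replicates 1 and 2 and 0.17 within replicates 3 and 4, and it passed in none of these fits. For both genes the intervals leave room for differences of the sizes given. Both probe sets were dim. At their lowest, Bbc3 stood 0.41 and Pmaip1 0.65 above the median of rows without a gene name on the same array. That median was itself lower on bleomycin arrays (4.20 to 4.35) than on control arrays (4.44 to 4.52). The size of any difference in these genes is therefore uncertain.

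Fas, the death receptor of the extrinsic path, was lower on all bleomycin arrays (8.47 to 8.82) than on the control arrays (8.94 to 9.18). Its difference of -0.32 ± 0.10 did not pass over all genes (adjusted p = 0.0637). Fas passed with each array centred on its median (-0.37, adjusted p = 0.0371) and with limma's trended, robust variance (adjusted p = 0.0326). Without the dimmest 30% or 50% of genes it also passed (adjusted p of 0.0377 and 0.0274). Trp53inp1, a stress protein that helps to activate p53, likewise had separate ranges of 8.95 to 9.30 on bleomycin and 9.34 to 9.77 on control arrays. It did not pass (-0.38 ± 0.13, adjusted p = 0.0725), though it passed under the same alternatives as Fas (adjusted p of 0.0356 to 0.0456). It differed by -0.61 within replicates 1 and 2 and by -0.14 within replicates 3 and 4. Ei24, a membrane protein of the endoplasmic reticulum, read 9.24 to 9.44 on bleomycin and 9.05 to 9.18 on control arrays, and its difference of 0.27 ± 0.08 just missed the threshold (adjusted p = 0.0517). It passed with quantile normalization, without dim genes, with trended and robust variance, with array weights and with replicates 1 and 2 against 3 and 4 as a batch term (adjusted p of 0.0174 to 0.0473). Pidd1, which helps to activate caspase-2, read 5.45 to 5.79 on bleomycin and 5.05 to 5.47 on control arrays, overlapping ranges, and did not pass (0.32 ± 0.12, adjusted p = 0.101). Its probe set was also dim, at its lowest 0.58 above the median of rows without a gene name on the same array.

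Perp, a membrane protein of cell junctions and a death effector that epithelium expresses strongly, fell. It read 5.30, 4.72, 5.28 and 4.90 on bleomycin arrays and 5.79, 5.48, 5.65 and 5.40 on control arrays, a fall of 0.53 ± 0.15 (adjusted p = 0.0304). Of the 15 epithelial markers 11 fell in the same samples, and whether this bears on Perp was not tested. The Perp probe set was dim, at its lowest 0.46 above the median of rows without a gene name on the same array. That median was lower on bleomycin arrays (4.20 to 4.35) than on control arrays (4.44 to 4.52), and its bearing on the fall was not tested. With quantile normalization Perp differed by -0.45 and did not pass (adjusted p = 0.0627). Without bleomycin replicate 2 or 4, or control replicate 1, 2 or 3, Perp did not pass (adjusted p of 0.0505 to 0.0836).

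The repair genes stood lower. Xpc, which recognises lesions for nucleotide excision repair, read 6.50, 6.91, 6.88 and 6.90 on bleomycin arrays and 7.38, 7.27, 7.50 and 7.61 on control arrays. The groups were apart and Xpc fell by 0.64 ± 0.12, or 1.56-fold (adjusted p = 0.00451). Ercc5, the nuclease that cuts on one side of the lesion in the same path, read 7.51, 7.52, 7.53 and 7.87 on bleomycin arrays and 7.95, 8.03, 8.14 and 8.14 on control arrays. It fell by 0.46 ± 0.10, or 1.37-fold (adjusted p = 0.0131), with bleomycin replicate 4 nearest the controls.

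Rrm2b, the ribonucleotide reductase subunit that p53 uses to supply nucleotides for repair, read 6.84, 7.33, 6.95 and 7.07 on bleomycin arrays and 7.51, 7.42, 7.41 and 7.59 on control arrays. It fell by 0.44 ± 0.11 (adjusted p = 0.0232), and lost its call without bleomycin replicate 1 or 3 or control replicate 1 or 4 (adjusted p of 0.0577 to 0.0651). Polk, a polymerase that copies across damaged bases, was the exception. It read 6.07 to 6.44 on bleomycin and 5.92 to 6.17 on control arrays and did not pass (0.27 ± 0.11, adjusted p = 0.113). The median of the 4 repair genes was -0.45, and -0.43 and -0.47 within replicates 1 and 2 and replicates 3 and 4. With only 2 arrays per group, none of the 4 passed within replicates 1 and 2 in limma (2 were lower at an unadjusted p under 0.05) and Xpc alone passed within replicates 3 and 4. Without control replicates 1 and 2, Xpc and Ercc5 passed (adjusted p of 0.015 and 0.0422).

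The 3 sestrins, stress-induced proteins that restrain the growth kinase complex mTORC1, went opposite ways. Sesn1 read 7.57, 7.84, 7.68 and 7.95 on bleomycin arrays and 8.55, 8.55, 8.44 and 8.60 on control arrays. It was lower on every bleomycin array and had the largest fall of the list, by 0.77 ± 0.10 or 1.71-fold (adjusted p = 0.000622). Sesn2, which also answers to amino acid and endoplasmic reticulum stress, read 7.45, 7.57, 7.50 and 7.55 on bleomycin arrays and 6.61, 6.80, 6.70 and 6.90 on control arrays. It rose by 0.77 ± 0.09, or 1.70-fold (adjusted p = 0.00037), without overlap. Sesn3, known as a target of FoxO factors, read 9.17, 9.60, 9.59 and 9.18 on bleomycin arrays and 8.68, 8.79, 8.46 and 8.72 on control arrays. It rose by 0.72 ± 0.13, or 1.65-fold (adjusted p = 0.00392). These directions held with quantile normalization and with each array centred on its median.

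Of the other metabolic members only Ak1 passed. Ak1, the adenylate kinase that balances adenine nucleotides, read 7.69, 7.63, 7.90 and 7.77 on bleomycin arrays and 6.23, 6.80, 6.71 and 6.55 on control arrays. It rose by 1.17 ± 0.13, or 2.25-fold (adjusted p = 0.000248), with the groups far apart. Tigar, a phosphatase that diverts sugar from glycolysis, read 5.97 to 6.04 on bleomycin and 5.99 to 6.18 on control arrays, a difference of -0.11 (95% interval -0.28 to 0.07). Dcxr, a carbonyl reductase, differed by 0.16 (95% interval -0.07 to 0.40). Abhd4, a lipase of N-acyl phospholipids, had the smallest difference of these, at 10.36 to 10.54 on bleomycin and 10.41 to 10.52 on control arrays, or -0.02 (95% interval -0.20 to 0.16).

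With replicates 1 and 2 against 3 and 4 as a batch term, 14 members rose and 6 fell, beside 2293 and 2168 of all genes. The sign of the difference was the same within replicates 1 and 2 as within replicates 3 and 4 in 27 of the 31 members and in all 19 that passed. The 4 members with unlike signs were Plk3, Bbc3, Pmaip1 and Abhd4, none of which passed over all arrays. With 2 arrays per group 10 members rose and 1 fell within replicates 1 and 2, against 3.78% and 3.76% of all genes. Within replicates 3 and 4, 9 rose and 1 fell, against 2.27% and 0.992% of all genes. Mdm2, Ccng1, Cdkn1a, Gtse1, Eda2r, Phlda3, Zmat3, Sesn2 and Ak1 rose in both pairs. Without control replicates 1 and 2, 10 members rose and 4 fell, against 5.43% and 4.47% of all genes. Of the members that passed over all arrays, Apaf1, Aen, Perp and Rrm2b passed in none of these fits with fewer arrays (limma, adjusted p of 0.0556 to 0.319). Btg2, Sesn3 and Ercc5 passed within neither pair, but did without those 2 controls.

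**Figure D3:**
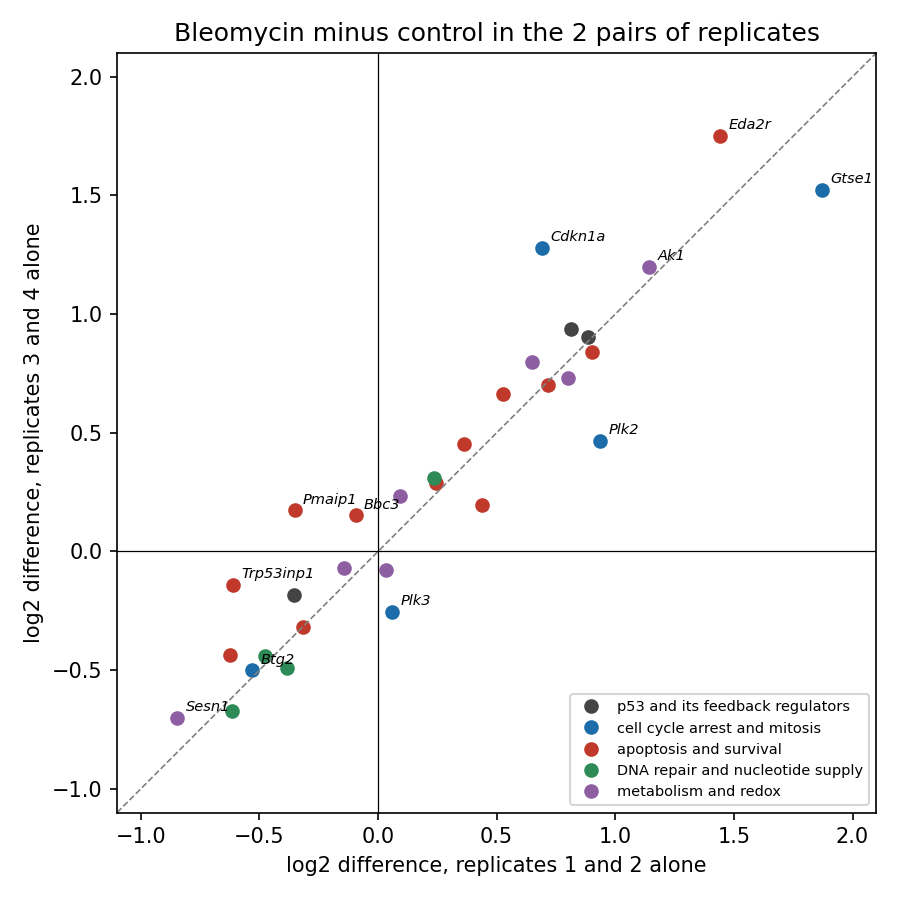
Log2 difference, bleomycin minus control, of the 31 members within replicates 1 and 2 alone (x axis) and within replicates 3 and 4 alone (y axis), with 2 arrays per group in each and the dashed line marking equal differences. Most points lie near the line. Cdkn1a (0.69 and 1.28) lies above it and Plk2 (0.94 and 0.47) below it.

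Genes around p53 that are not members were taken from 3 further lists. Of 16 measured other p53 targets 5 rose (31.2%) and 2 fell (12.5%), against 9.12% and 8.24% of all genes. The share that fell is thus near that of all genes. The median was 0.17, against 0.03 over all genes. Tnfrsf10b, a death receptor for TRAIL, rose by 1.88 ± 0.15 and reached 7.99, 7.56, 7.66 and 7.45 on bleomycin arrays, against 6.05, 5.90, 5.66 and 5.50 on control arrays. The microtubule-associated Psrc1 rose by 1.66 ± 0.11, the cytokine gene Lif by 1.22 ± 0.12, Pml, which organises nuclear bodies, by 0.64 ± 0.08 and the peptide transporter Tap1 by 0.53 ± 0.10. Sat1, which acetylates polyamines, fell by 0.69 ± 0.13, and Ppm1d, the phosphatase that switches off damage signalling, fell by 0.36 ± 0.09. The earlier analysis had already shown Tnfrsf10b, Eda2r and Gtse1 among the largest rises.

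Of 14 kinases and modifiers that act on p53, 2 rose and 2 fell (14.3% each way, near the 9.12% and 8.24% of all genes), with a median of -0.04. The checkpoint kinase genes Chek2 and Chek1 rose by 0.62 ± 0.15 and 0.42 ± 0.10 (adjusted p of 0.0167 and 0.0132). The deacetylase gene Sirt1 fell by 0.58 ± 0.10 and Prkdc, the DNA-dependent protein kinase, by 0.33 ± 0.10. Atm, a kinase activated by DNA breaks, had overlapping groups, and its difference of 0.01 did not pass (adjusted p = 0.922).

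**Figure D4:**
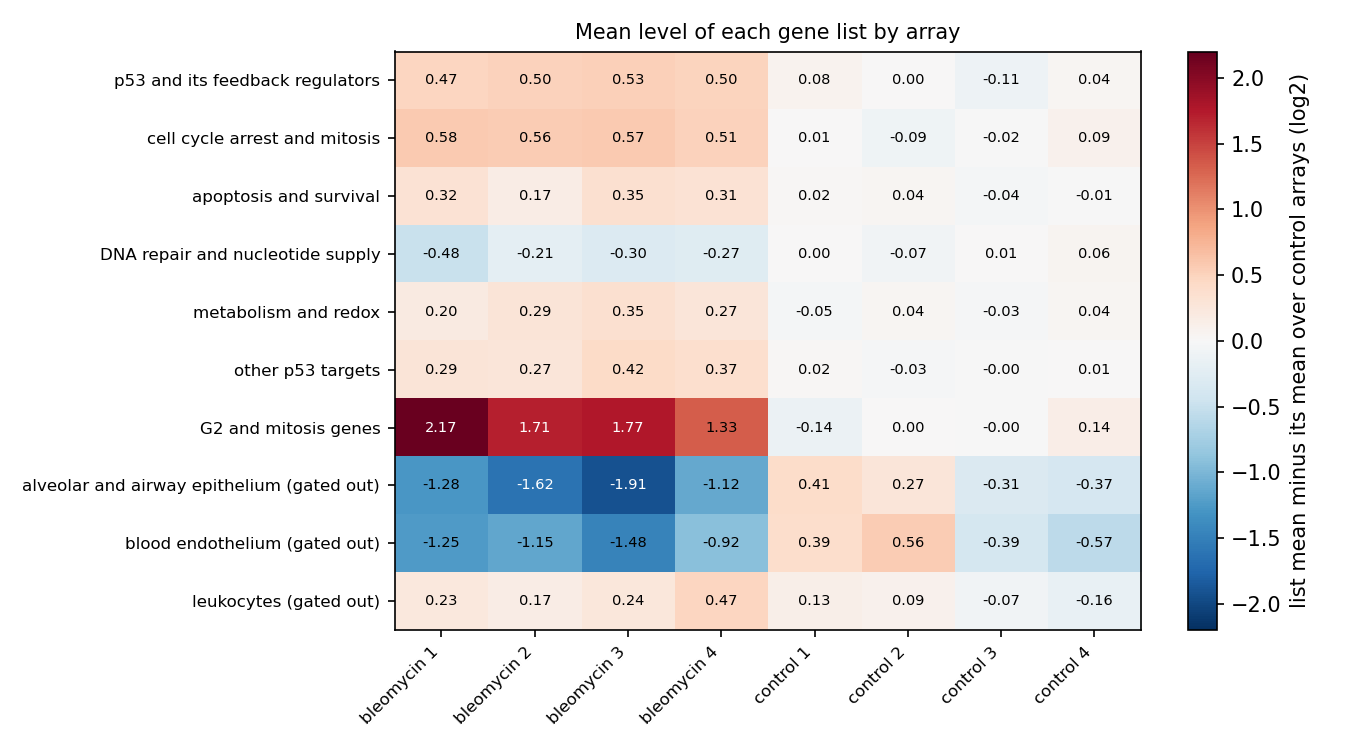
Mean log2 level of each gene list on each array, minus the list's mean over the 4 control arrays, printed in each cell. Rows are the 5 roles of the p53 target genes, other p53 targets, the G2 and mitosis genes and 3 lists of cells that the gate should remove. The repair row is below 0 on all 4 bleomycin arrays (-0.48 to -0.21) and the other 4 role rows are above it, while the epithelial and endothelial rows also set control replicates 1 and 2 above control replicates 3 and 4.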

How the data were processed

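RNA of lung mesenchymal cells was measured on 4 bleomycin and 4 control arrays. Per the labels' protocols, biotinylated cRNA was made from 100 ng of total RNA. The authors deposited 1 value per probe set and array, read here as log2 intensities since the lowest is 0.24 and the highest 13.58. How the authors corrected background, summarised probes and normalized is not given in the sources used here. The number of arrays limits the precision.

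Of 41345 rows 23521 had 1 annotated gene, 1814 several and 16010 none. Each of 22180 genes was represented by its brightest single-gene row over all 8 arrays. Groups and replicate numbers came from the sample titles. The values as deposited were fitted with limma 3.58.1 (lmFit, eBayes, two-sided) under R 4.3.3, with Benjamini-Hochberg adjustment over all genes. Members, lists, roles and alternatives were chosen with earlier results of these data known. Every measured member is named. From each list around p53 up to 4 passing genes in each direction were to be named, and Tap1 was added after its value was seen. On simulated data with 200 of 22180 genes changed, the share found was 50.7% at 1.5-fold, 82.1% at 2-fold and 97% at 4-fold, with 3.16% false among the calls. The simulated noise was independent between arrays and genes, and far fewer genes changed than the 3850 called in the data. These shares therefore need not hold for the fit of the data.

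Promoter sequences are RefSeq's for GRCm38.p6. The array values name no build. Replicate numbers were not taken to pair the samples, since the labels do not say that they do and the deviations of same-numbered samples from their group means correlated at 0.13, 0.06, 0.11 and 0.06. Other settings tried were other scalings, the replicate number as a block, filters on dim genes, choices of probe set, variance models, a threshold of 0.01, each array left out, and the pairs of replicates.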

Additional observations from a re-analysis of the deposited data

Results flagged for a closer look

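Among 62 groups of 4 arrays, 4 held a value far from the other 3, where chance alone gives about 5% of groups. Mdm2 was low on control replicate 3 (8.03), Fas was high on control replicate 1 (9.18), Xpc was low on bleomycin replicate 1 (6.50) and Ercc5 was high on bleomycin replicate 4 (7.87). Without those arrays Mdm2, Xpc and Ercc5 kept their calls and Fas did not pass.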

How the results depend on the processing

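Leaving out each array in turn gave 12 to 14 members higher and 4 to 5 lower, beside 1497 to 1987 and 1306 to 1883 of all genes, and 16 of the 19 called members kept their call throughout. Apaf1, Perp and Rrm2b lost theirs, Ei24 passed without bleomycin replicate 2 (adjusted p = 0.0425) and Polk without bleomycin replicate 4 (adjusted p = 0.0488). Members with differences near 0 changed sign there, with ranges of -0.0325 to 0.0862 for Bbc3, -0.229 to 0.0489 for Pmaip1, -0.176 to 0.000423 for Plk3 and -0.0561 to 0.00703 for Abhd4. Bbc3 was -0.0209 with median centring and -0.0944 within replicates 1 and 2, Plk3 was 0.0604 and Abhd4 0.0338 within replicates 1 and 2, and Pmaip1 0.17 within replicates 3 and 4 and 0.23 without control replicates 1 and 2.

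Over all genes 2022 were higher and 1828 lower, against 1623 and 2314 with median centring and 2567 and 1589 with quantile normalization. Members split 12 and 8 with median centring and 15 and 5 with quantile normalization, where Perp was lost (adjusted p = 0.0627) and Pidd1 passed (adjusted p = 0.0462). At an adjusted p under 0.01, 3 members were lower, with 1079 genes up and 879 down. Within replicates 1 and 2 alone 1 member was lower, with 838 genes up and 833 down. Within replicates 3 and 4 alone 1 member was lower, with 503 genes up and 220 down, and the arrest and mitosis median was 0.47. Without control replicates 1 and 2 there were 1205 and 992 genes, and the feedback median was 0.96. These fits hold fewer arrays. With the replicate number as a block, 12 members were higher and 6 lower, beside 1937 and 1838 genes, and Apaf1 lost its call (adjusted p = 0.0858). The median of the apoptosis role was not computed without the dimmest 50% of genes, which removes some of its members.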
